A study of Mus musculus with 9 samples.

Results

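The leukocyte integrin chains described here are the transcripts of 9 genes, Itgb7, Itgae, Itga4, Itgb1, Itgal, Itgb2, Itgav, Itga6 and Itgb3, picked by gene symbol out of the 41978 genes of one bulk RNA-seq table. Of these genes 5 encode alpha chains and 4 encode beta chains. The table covers semimature SP4 thymocytes, CD4 single-positive T cells still maturing in the thymus, from mice that carry the Nur77-eGFP BAC transgene, in which regulatory sequence of Nr4a1 (Nur77) drives GFP and so reports signalling through the T cell receptor. All 9 samples came from mice of this genotype and from the same gate of live CD4+ CD8- CD25- CD69+ CD24+ cells (the study's methods call CD24 high, its main text low), and mice of the study other than bone marrow chimeras were of both sexes and 3 to 10 weeks old, with no age given per sample. They differed in the GFP gate alone, about 10% of the distribution each, sorted at 10000 cells per sample: 3 GFPlo, 3 GFPmed and 3 GFPhi samples, labelled as biological replicates. Whether same-numbered samples share a mouse is not stated, so the p-values below measure the spread between these samples.

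An integrin is a cell-surface receptor made of 1 alpha and 1 beta chain, and the chain pair sets the ligand. In T cells Itgal and Itgb2 form LFA-1, which binds ICAM proteins on other cells, while Itga4 pairs either with Itgb1 to bind VCAM-1 and fibronectin or with Itgb7 to bind the gut addressin MAdCAM-1. Itgae also pairs with Itgb7, as a receptor for E-cadherin on epithelium, Itga6 pairs with Itgb1 to bind laminin, and Itgav pairs with Itgb3 to bind vitronectin. Thymocytes use such receptors to hold on to stroma and matrix as they move through cortex and medulla. Signals inside the cell can open the receptors and so strengthen their binding.

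The 3 chains of the alpha4 receptors are of most interest, since Itga4 has both beta chains as partners and these differed between the groups in opposite directions. Their promoters are therefore given as the 250 bases before the RefSeq transcription start in build GRCm38.p6, each on the strand of its gene. The RefSeq promoter table held 4 of the 9 members, these 3 and Itgav. Itgb7 lies at chr15:102231936-102232185 on the minus strand, Itga4 at chr2:79255176-79255425 on the plus strand and Itgb1 at chr8:128685404-128685653 on the plus strand. Capitals mark every match, on either strand, to 7 motifs, of which CACCC boxes, GC boxes and 1 RUNX match occur.
Itgb7: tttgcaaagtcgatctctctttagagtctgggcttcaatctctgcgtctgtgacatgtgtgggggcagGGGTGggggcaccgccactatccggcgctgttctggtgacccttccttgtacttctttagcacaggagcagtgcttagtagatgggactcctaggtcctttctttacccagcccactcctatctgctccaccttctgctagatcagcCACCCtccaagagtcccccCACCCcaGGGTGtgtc
Itga4: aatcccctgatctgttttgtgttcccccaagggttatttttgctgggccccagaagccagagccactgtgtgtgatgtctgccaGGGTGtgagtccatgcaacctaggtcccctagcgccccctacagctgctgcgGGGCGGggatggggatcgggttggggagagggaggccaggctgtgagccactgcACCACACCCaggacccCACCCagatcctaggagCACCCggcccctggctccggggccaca
Itgb1: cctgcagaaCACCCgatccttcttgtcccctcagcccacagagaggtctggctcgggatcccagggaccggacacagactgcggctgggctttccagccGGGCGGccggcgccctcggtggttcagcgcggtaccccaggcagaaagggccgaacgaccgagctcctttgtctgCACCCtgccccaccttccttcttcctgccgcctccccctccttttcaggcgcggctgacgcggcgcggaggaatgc

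The motifs searched were the NR4A element AAAGGTCA, the EGR motif GTGGGCG, the GC box GGGCGG, the CACCC box CACCC, which KLF factors bind, the RUNX motif TGTGGT, the ETS motif CGGAAG and the AP-1 motif TGANTCA. The Itgb7 and Itga4 windows each held 4 CACCC boxes and the Itgb1 window 2, and 52% of 32851 promoters of this length held at least 1. Promoters with as many as 2 or 4 boxes were not counted. A GC box stood once in Itga4 and once in Itgb1 and not in Itgb7, against 32.7% of all promoters. The RUNX match in Itga4, a motif in 14% of all promoters, overlaps a CACCC box. AAAGGTCA occurred in none of these windows, against 1.34% of all promoters, nor did the EGR (7.02%), ETS (13.6%) or AP-1 (6.75%) letters. The windows also differed in composition: GC content was 56% with 5 CpG dinucleotides in Itgb7, 64% with 6 in Itga4 and 68% with 21 in Itgb1, against medians of 52.4% and 6 over all promoters. A match describes letters only. In the GENCODE vM21 annotation Itgb7 starts slightly upstream, so the last bases of its window fall inside that gene model.

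Nr4a1 followed the GFP gates. It ran from 187 to 251 TPM in GFPlo, 351 to 406 in GFPmed and 767 to 917 in GFPhi. Cd3e and Cd4 were high in every sample, at 1022 to 1318 and 445.5 to 609.2 TPM. Genes that change during thymocyte maturation differed between the groups in part. Of 5 genes of later maturation 3 rose between GFPlo and GFPhi and 1 fell, with a summed level of 361.9 to 382.1 TPM in GFPlo and 1017 to 1068 TPM in GFPhi, and of 4 tested genes of earlier stages 2 fell. Over all tested genes 2.38% passed upward and 1.51% downward. Klf2, a factor for thymic exit, rose by 2.60 on the log2 scale and S1pr1 by 4.70, while Il7r, of the same list, fell by 1.81 and Ccr9, of the earlier stages, fell by 2.35. Cd24a, a marker lost as thymocytes mature, was at means of 104.4 TPM in GFPlo and 96.6 TPM in GFPhi (adjusted p = 0.808). Of 12 SP4 marker genes, which include Cd24a, 1 rose and 1 fell. The gene that fell was Cd69, also in the sort gate, which the study describes as lower on mature SP thymocytes. Its means were 374.6 TPM in GFPlo and 215.7 TPM in GFPhi (log2FC -0.79, adjusted p = 0.0142). Of 5 regulatory T cell genes 4 rose, with a sum of 17.45 to 21.33 TPM in GFPlo and 84.87 to 97.39 TPM in GFPhi, and Il2ra, which encodes CD25, was among them at means of 0.665 and 9.73 TPM. The summed levels of B cell, myeloid and platelet markers were at most 31.43, 36.81 and 23.73 TPM in any sample and none of their tested genes passed the test, although 0 of these markers were at 0 in all samples. The part of these differences in the results below was not tested. In bulk RNA fewer cells of a type and less RNA per cell cannot be told apart. Total reads on genes, solved from the deposited values, were 7465552 to 14943774 per sample, and each member had at least 101 reads in every sample.

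Between GFPlo and GFPhi, Itgb7 and Itga4 rose and Itgb3 and Itgb1 fell, while the other 5 chains did not pass the test. The test was limma on log2(TPM + 1) over all 9 samples, with Benjamini-Hochberg adjustment over 30693 genes, and a gene passed at an adjusted p of at most 0.05. A gene counted as a DEG if its log2 fold change (log2FC) was also at least 1 in size. All 9 members passed the filter of 1 TPM in at least 3 samples. Members passed in 2 cases upward and 2 downward, where 2.38% of all tested genes passed upward and 1.51% downward. Itgb7 and Itgb3 were DEG, against a background of 1.26% of genes upward and 0.404% downward. The median log2FC was 0.16 over the 9 members and -0.09 over all genes. For all genes, scaling by the median of ratios changed the split of higher and lower calls from 730 and 464 to 472 and 131.

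Itgb7, the beta chain shared by the gut-homing receptor and the E-cadherin receptor, rose most. It stood at 133, 118 and 144 TPM in the GFPlo samples, 204, 171 and 187 TPM in the GFPmed samples and 293, 321 and 307 TPM in the GFPhi samples. No group overlapped another, and the lowest GFPhi sample exceeded the highest GFPmed sample by a wide margin. The means were 131.6 ± 13.3, 187.4 ± 16.6 and 306.8 ± 14.2 TPM (SD, n = 3), 2.33-fold higher in GFPhi than in GFPlo. The log2FC was 1.22 with a standard error of 0.09 and an adjusted p of 0.000557. It also rose from GFPmed to GFPhi, by 0.71 (adjusted p = 0.0122). This second call was lost by median-of-ratios scaling (adjusted p = 0.0781), by the fit without the trend (0.0645), and without GFPmed replicate 2 (0.0611), GFPmed replicate 3 (0.0615) or GFPhi replicate 3 (0.0644). From GFPlo to GFPmed the log2FC was 0.51, with an unadjusted p of 0.000742 and an adjusted p of 0.265.

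Itgb3, the beta chain of the vitronectin receptor, had the largest fall of the members. Its levels were 80.7, 85.9 and 82.7 TPM in the GFPlo replicates, 79.0, 73.7 and 64.9 TPM in those of GFPmed and 32.5, 35.0 and 33.8 TPM in those of GFPhi. The 3 groups did not overlap, but GFPmed lay much nearer to GFPlo than to GFPhi. Its mean was 2.46-fold lower in GFPhi than in GFPlo (33.8 ± 1.24 against 83.1 ± 2.60 TPM, SD, n = 3). The log2FC was -1.27 with a standard error of 0.08 and an adjusted p of 0.000284. Against GFPmed it was -1.08 (adjusted p = 0.00149), again a DEG, and from GFPlo to GFPmed -0.20 (adjusted p = 1). Itgb3 is also a platelet gene. The platelet list summed to 9.815 to 23.73 TPM in GFPlo and 11.21 to 19.53 TPM in GFPhi, and Itga2b, the platelet partner of Itgb3, had means of 1.86 and 3.65 TPM.

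Itgb1, the partner of Itga4, Itga6 and Itga5 in receptors for matrix and VCAM-1, fell as well. Its levels were 52.4, 55.6 and 52.7 TPM in the GFPlo replicates, 55.3, 52.3 and 47.4 TPM in those of GFPmed and 27.2, 35.3 and 32.9 TPM in those of GFPhi. GFPlo and GFPmed overlapped, and all GFPhi samples were below both. The log2FC from GFPlo to GFPhi was -0.74 with a standard error of 0.11 (adjusted p = 0.0106), a mean 1.68-fold lower. This call was lost by median-of-ratios scaling (adjusted p = 0.1) and without GFPlo replicate 2 (0.0528). Against GFPmed the log2FC was -0.69 (adjusted p = 0.028), a call lost without any 1 of 7 libraries, all but GFPhi replicates 1 and 2 (adjusted p of 0.0516 to 0.128). It was also lost by median-of-ratios scaling (0.224), quantile normalization (0.0576), the fit on GFPmed and GFPhi alone (0.107), the fit without the trend (0.0834) and the replicate block (0.0718).

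Itga4, the alpha chain of both VLA-4 and the gut-homing receptor, rose less. Its levels were 14.8, 15.2 and 15.0 TPM in the GFPlo replicates, 15.8, 15.1 and 14.7 TPM in those of GFPmed and 20.7, 21.1 and 24.4 TPM in those of GFPhi. The GFPlo and GFPmed samples were alike in range and all 3 GFPhi samples were above them. The mean was 1.47-fold higher in GFPhi than in GFPlo, with a log2FC of 0.52, a standard error of 0.10 and an adjusted p of 0.0326. The call did not survive leaving out any 1 of the 9 libraries (adjusted p of 0.0545 to 0.12), nor median-of-ratios scaling (0.112), quantile normalization (0.165), the fit on GFPlo and GFPhi alone (0.117), the fit without the trend (0.0605) or the replicate block (0.0774). The log2FC against GFPmed was 0.51 (adjusted p = 0.0658). About 8.04% of the exonic length of Itga4 overlaps Cerkl on the opposite strand, and reads there cannot be told apart without strand.

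**Figure D1:**
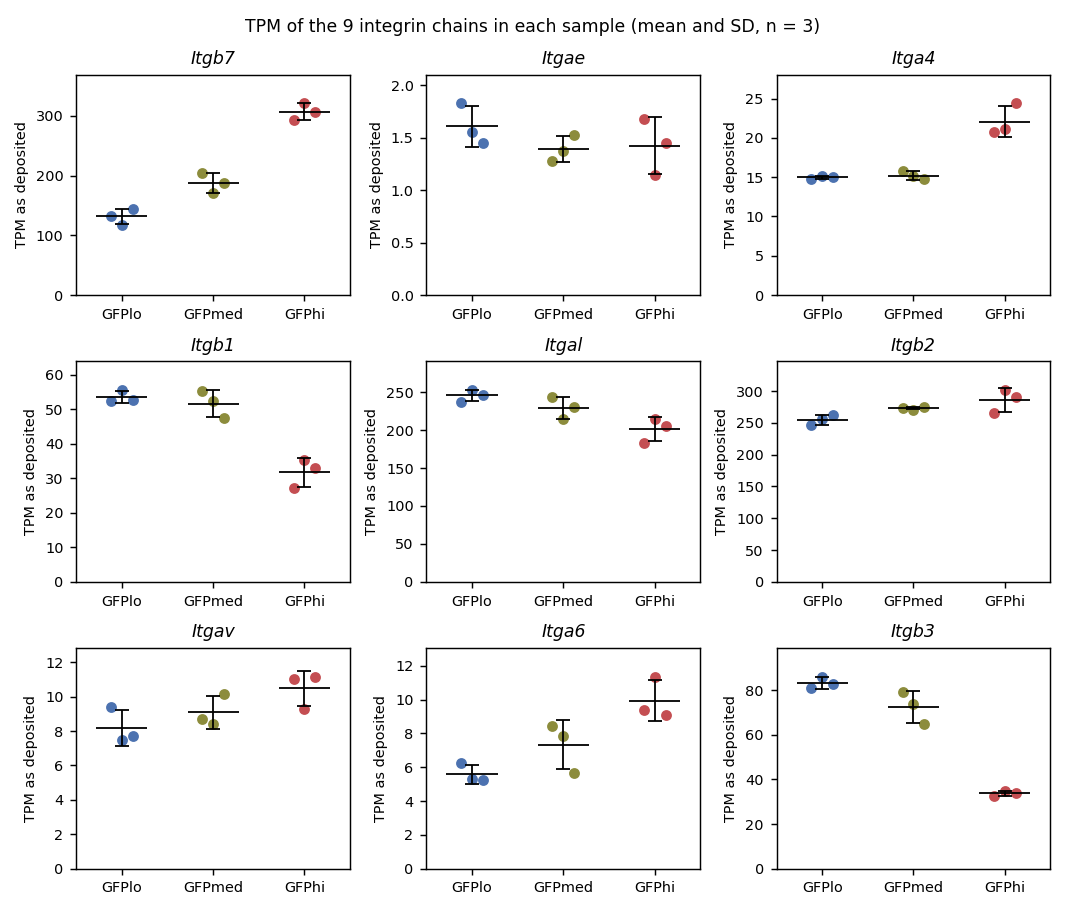
TPM of each of the 9 chains (y axis, from 0) in the 3 GFPlo, 3 GFPmed and 3 GFPhi samples, 1 point per sample, with the mean and SD per group as black lines. Itgb7 climbs from a mean of 131.6 to 306.8 TPM through GFPmed, while Itgb3, Itgb1 and Itga4 differ mainly in GFPhi.

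The remaining 5 chains include the most and the least abundant. Itgal, the alpha chain of LFA-1, was at 238, 253 and 247 TPM in the GFPlo replicates, 243, 215 and 230 TPM in those of GFPmed and 183, 215 and 205 TPM in those of GFPhi. All GFPhi samples were below all GFPlo samples, with a log2FC of -0.29 and an adjusted p of 0.0951. It passed as lower with quantile normalization (0.0287) and with limma-voom on library totals (0.0007). Itgb2, its beta chain, was at 246, 256 and 262 TPM in GFPlo and 265, 301 and 290 TPM in GFPhi, again without overlap but in the other direction (log2FC 0.16, adjusted p = 0.254, and 0.00396 with limma-voom on library totals). Its GFPmed samples lay at 274, 271 and 275 TPM.

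Itga6, the laminin-binding alpha chain, was at 6.23, 5.28 and 5.26 TPM in the GFPlo replicates, 8.43, 7.87 and 5.69 TPM in those of GFPmed and 9.40, 11.3 and 9.08 TPM in those of GFPhi. The GFPhi samples were the highest, with a log2FC of 0.73, a standard error of 0.19 and an adjusted p of 0.0931. On the solved reads limma-voom gave Itga6 adjusted p-values of 0.000771 and 0.00279 by its scaling, and TPM recomputed on exonic length gave 0.032, so whether it passed depended on the method. Itgav, the partner of Itgb3, ran from 7.47 to 9.38 TPM in GFPlo and from 9.29 to 11.1 TPM in GFPhi, which overlap (log2FC 0.32, adjusted p = 0.43). About 5.90% of its exonic length overlaps the noncoding gene Gm13684 on the other strand. Itgae, the alpha chain that joins Itgb7 on cells at epithelia, ran from 1.14 to 1.83 TPM over all 9 samples, with 101 to 179 reads. Its groups overlapped throughout (log2FC -0.11, adjusted p = 0.885).

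Across the set, 7 of the 9 members had GFPhi samples that did not overlap the GFPlo samples, against 18.2% of all tested genes. The exceptions were Itgae and Itgav. An ordered trend over GFPlo, GFPmed and GFPhi was also tested for each member, with an exact permutation test over all 1680 arrangements of the samples (two-sided, smallest possible p 0.00119). By this test 8 of the 9 members had an exact p of at most 0.05, all but Itgae (exact p = 0.294), where 15% of all tested genes did. Itgb7 and Itgb3 had the smallest p the test allows, with slopes of 0.61 and -0.64 log2 units per step. Itga6 (0.36 per step) and Itgal (-0.15 per step) each had an exact p of 0.00357. Itgb1 had 0.00476, Itga4 0.00952, Itgb2 0.0107 and Itgav 0.025. The p of Itgav rose above 0.05 without GFPlo replicate 2 (0.0768), GFPlo replicate 3 (0.0643), GFPhi replicate 1 (0.0625) or GFPhi replicate 3 (0.0661). Under median-of-ratios scaling those of Itgal and Itgb2 were both 0.112. These are 9 tests of single genes, not adjusted for their number. The members were chosen with earlier results of these data known. Their counts beside shares of all genes, here and above, are therefore descriptions.

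In the middle group the 4 members that passed between GFPlo and GFPhi lay at different distances from GFPlo. Of its change in mean log2(TPM + 1) between GFPlo and GFPhi, Itgb7 had reached 41.7% in GFPmed, against 15.5% for Itgb3, 7.17% for Itgb1 and 3.27% for Itga4. The GFPmed samples of Itgb7 and Itgb3 did not overlap those of GFPlo, and those of Itgb1 and Itga4 did. These shares are descriptions. No member passed the limma test between GFPmed and GFPlo, where 0.0717% of all genes passed upward and 0.00326% downward. Itgb7 and Itgb3 had an unadjusted p under 0.05, and limma-voom scaled by library totals called 1 member, Itgb7 (adjusted p = 0.0126), and with median-of-ratios scaling 0. Between GFPmed and GFPhi, Itgb7 rose and Itgb3 and Itgb1 fell, where 0.899% of all genes passed upward and 0.609% downward and 0.541% and 0.15% were DEG. That comparison shares its GFPhi samples with the one against GFPlo.

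**Figure D2:**
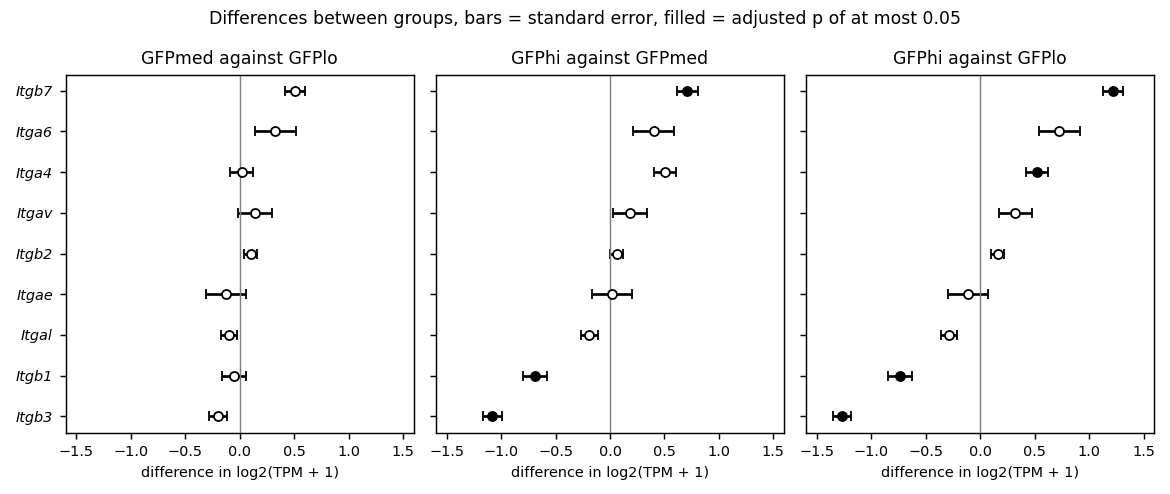
Difference in log2(TPM + 1) of each chain (x axis) in the 3 comparisons, with the standard error as bars and filled points for an adjusted p of at most 0.05. No point is filled for GFPmed against GFPlo, 3 are for GFPhi against GFPmed and 4 for GFPhi against GFPlo.

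Levels of different chains can be compared only per length. For 98.4% of 41439 genes the deposited TPM had been divided by a length that counts introns (the transcripts' mean span, matched within 1%), so levels were recomputed on exonic length. On that scale the beta chains stood far above the alpha chains other than Itgal. Over the 9 samples the means were 1433 TPM for Itgb2, 581 for Itgal, 290 for Itgb3, 279 for Itgb7 and 203 for Itgb1. Itga4 was at 24.7, Itga6 at 19.2, Itgav at 14.7 and Itgae at 9.31 TPM. Exonic length joined the exons of all transcripts of a gene. It was 13978 bases for Itga4, 10744 for Itgav and 9025 for Itga6, against 2770 (Itgb7) to 5901 (Itgb3) for the beta chains. A longer joined length lowers a level, and levels on single transcripts were not computed.

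The order below LFA-1 changed with GFP. In GFPlo Itgb3 led at 371 to 394 TPM per exonic length, then Itgb1 at 234 to 247 and Itgb7 at 157 to 193, with no overlap between these neighbours. In GFPmed Itgb3 was still first at 299 to 361, and Itgb7 (229 to 272) and Itgb1 (212 to 245) overlapped. In GFPhi Itgb7 came first at 395 to 422, far above Itgb3 at 151 to 158 and Itgb1 at 122 to 155, which overlapped. Among the low chains Itga4 came first in GFPlo and GFPhi, and in GFPmed its range of 20.9 to 22.3 overlapped that of Itga6 (14.4 to 21.2). Itga6 and Itgav overlapped in GFPlo and GFPmed but not in GFPhi (23.0 to 28.1 against 14.5 to 17.8), and Itgae was the lowest in every group.

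As a share of the 4 beta chains, on the same scale, Itgb7 made up 8.22% ± 0.80 in GFPlo, 11.1% ± 0.76 in GFPmed and 18.5% ± 0.39 in GFPhi (SD, n = 3). Itgb3 went from 17.8% ± 0.49 to 14.7% ± 1.12 and 7.01% ± 0.21, and Itgb1 from 11.1% ± 0.39 to 10.2% ± 0.56 and 6.37% ± 0.45. Itgb2 held 62.8%, 64% and 68.1%. The ratio of Itgb7 to Itgb1, the 2 beta chains that pair with Itga4, was 0.763, 0.636 and 0.821 in the GFPlo samples, 1.11, 0.983 and 1.18 in the GFPmed samples and 3.24, 2.73 and 2.80 in the GFPhi samples. No group overlapped another. Itgb1 was thus the more abundant of the pair in every GFPlo sample and Itgb7 in every GFPhi sample. This ratio was chosen after its values were seen and was not tested.

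**Figure D3:**
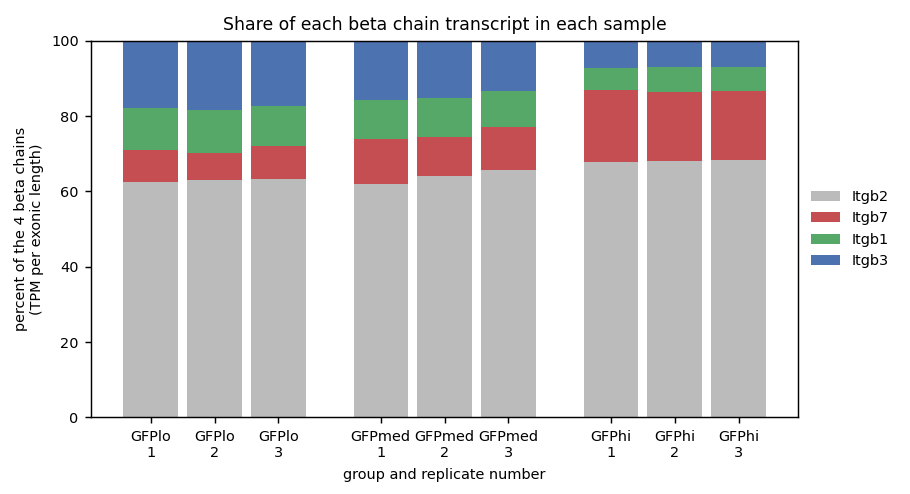
Share of Itgb2, Itgb7, Itgb1 and Itgb3 in the summed TPM per exonic length of the 4 beta chains (y axis, percent), as 1 stacked bar for each of the 9 samples. Itgb7 widens from a mean of 8.22% in GFPlo to 18.5% in GFPhi while Itgb3 and Itgb1 narrow.

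Alpha to beta ratios were followed for 6 receptor pairs, since a receptor needs both chains. All 6 changed with GFP by the exact permutation test of the ordered trend in the log2 ratio, and in all 6 the GFPhi samples did not overlap the GFPlo samples. Of single tested genes 15% had such a trend and 18.2% did not overlap. No share was computed for ratios of other gene pairs, so these counts have no background of their own. A ratio shows that its chains changed unequally, and 5 of the 6 pairs hold at least 1 member that passed on its own. The excess of Itgb7 over Itga4 per exonic length was 8.30 ± 0.90 in GFPlo, 11.6 ± 0.81 in GFPmed and 13.2 ± 1.26 in GFPhi (SD, n = 3), so the log2 ratio of Itga4 to Itgb7 fell by 0.67 although Itga4 itself rose (exact p = 0.00357). The excess of Itgb7 over Itgae went from 17.5 ± 3.06 to 28.8 ± 4.5 and 47.2 ± 11.6 (exact p = 0.00119).

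The pairs with Itgb1 and Itgb3 went the other way. Itgb1 exceeded Itga4 11.2-fold in GFPlo, 10.7-fold in GFPmed and 4.55-fold in GFPhi, a change of 1.31 in the log2 ratio of Itga4 to Itgb1 (exact p = 0.00119). Itgb1 exceeded Itga6 17.0-fold in GFPlo and 5.67-fold in GFPhi (change 1.59, exact p = 0.00119), and Itgb3 exceeded Itgav 29.8-fold and 9.42-fold (change 1.66, exact p = 0.00357). The LFA-1 pair, whose chains did not pass singly in the main test, also shifted. Itgb2 exceeded Itgal by 2.13 ± 0.05 in GFPlo, 2.45 ± 0.14 in GFPmed and 2.91 ± 0.04 in GFPhi, with no overlap between any groups (log2 ratio of Itgal to Itgb2 lower by 0.45, exact p = 0.00119). Itga4, Itgb1 and Itgb7 recur among the pairs, so the 6 tests were not independent, and they were not adjusted for their number. A ratio within a sample is free of the scaling between samples. The size of each excess depends on the exonic lengths used, but the change in its log2 ratio between groups does not.

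**Figure D4:**
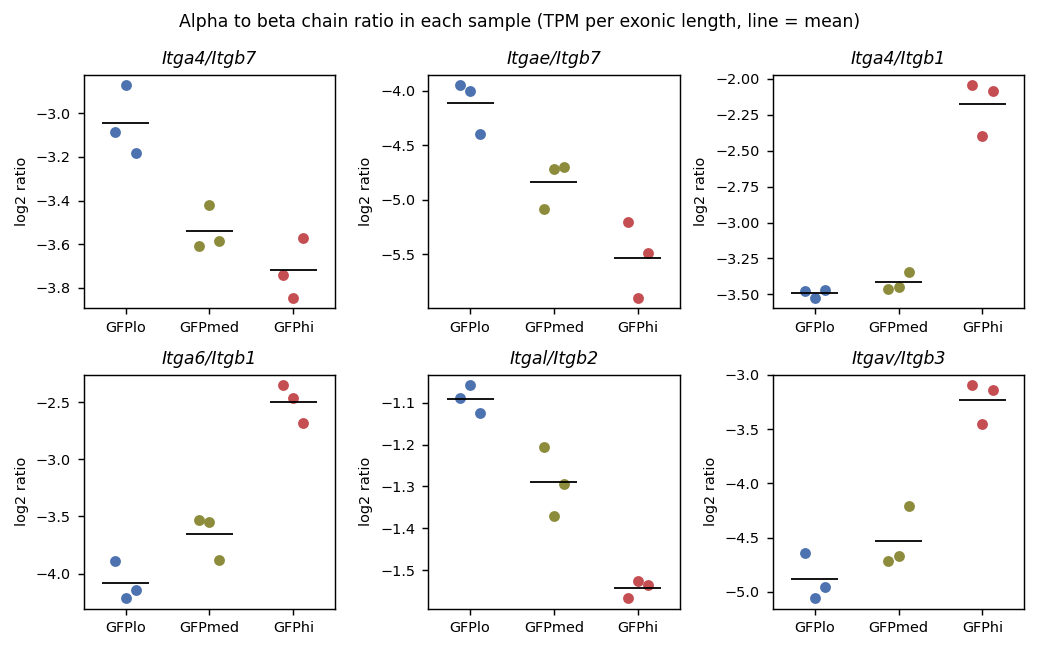
Log2 ratio of the alpha to the beta chain (y axis, TPM per exonic length) for 6 receptor pairs, 1 point per sample and the group mean as a line. Ratios to Itgb7 and Itgb2 go down with GFP, and those to Itgb1 and Itgb3 go up, mostly between GFPmed and GFPhi.

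Of the 18 other integrin chain genes, 8 passed the filter and 1 passed the test between GFPlo and GFPhi. Over all tested genes 2.38% passed upward and 1.51% downward. The chain that passed was Itga5, the fibronectin-binding partner of Itgb1, at 38.0 ± 3.52 TPM in GFPlo, a mean of 29.7 in GFPmed and 19.2 ± 0.55 in GFPhi (log2FC -0.95, adjusted p = 0.00646). The most abundant of the others by deposited TPM were Itga7 (means of 4.42 TPM in GFPlo and 4.30 in GFPhi) and Itgb2l (3.41 and 1.82), neither past the test. The myeloid alpha chains Itgam and Itgax had means of at most 1.31 TPM in any group.

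Most regulators that open or close integrins did not pass the test between GFPlo and GFPhi. Of 35 tested activators and adaptors 2 rose and 5 fell (median log2FC -0.03), and of 10 tested inhibitors 2 rose (median 0.20), where 2.38% of all tested genes passed upward and 1.51% downward and their median was -0.09. Rasgrp2, the exchange factor CalDAG-GEFI that loads Rap1 with GTP, rose from 99.4 ± 6.52 to 220.1 ± 15.0 TPM (log2FC 1.14, adjusted p = 0.000238). Rasa3, a GTPase-activating protein that turns Rap1 off, rose from 12.6 ± 1.66 to 46.3 ± 2.18 TPM (log2FC 1.80, adjusted p = 0.00061). Rasgrp2 and Rasa3 were the only DEG of these lists, and both kept their call in every alternative fit. Cyth1, cytohesin-1, which binds the tail of Itgb2, rose by 0.56 (adjusted p = 0.0299) and Sipa1, a further Rap1 GTPase-activating protein, by 0.53 (adjusted p = 0.0149).

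The activators that fell were Rap1a itself (log2FC -0.59, adjusted p = 0.0157), the Rap exchange factor Rapgef6 (-0.57, 0.0159), the Ras exchange factor Rasgrp1 (-0.48, 0.0172), the kinase Prkcq (-0.48, 0.0128) and the adaptor Parvg (-0.41, 0.0351). Of the highly expressed genes that did not pass, talin (Tln1), which opens integrins by binding the beta chain tail, was at means of 816 TPM in GFPlo and 849 TPM in GFPhi (adjusted p = 0.934). Ilk was at 298.1 and 339.8 TPM (0.538), the inhibitor filamin A (Flna) at 1384 and 1034 TPM (0.0833) and Dok2 at 718.8 and 516.3 TPM (0.0596). In alternative fits both of these last passed as lower, Flna on exonic length (0.0363), with limma-voom on library totals (0.000312) and without GFPhi replicate 2 (0.0139), and Dok2 with a filter of 5 TPM (0.0433), quantile normalization (0.00724), on exonic length (0.0267), with limma-voom on library totals (0.00104) and without GFPhi replicate 2 (0.0182). Under median-of-ratios scaling only Rasgrp2 and Rasa3 of the 9 regulators that passed still did. Cyth1 and Sipa1 also lost their calls with the replicate block (0.0552 and 0.0544), and Cyth1 (0.206), Rap1a (0.177), Prkcq (0.0608) and Rapgef6 (0.0551) with quantile normalization. With only the 2 groups fitted, or without the trend, each of the 7 regulators other than Rasgrp2 and Rasa3 lost its call in at least 1 of these fits. Leaving out single libraries also ended calls. Parvg lost its call without any library but GFPlo replicate 1 (adjusted p of 0.0593 to 0.138) and Cyth1 without any but GFPhi replicate 1 (0.0594 to 0.115). Rap1a (0.0609 to 0.074) and Prkcq (0.0517 to 0.0584) lost theirs without GFPlo replicate 2 or 3 or GFPhi replicate 3, Rasgrp1 (0.0521 to 0.0784) without any GFPlo replicate or GFPhi replicate 3, Rapgef6 (0.0558 to 0.0653) without any GFPlo replicate, and Sipa1 (0.0518 to 0.0695) without GFPlo replicate 1 or 2 or GFPhi replicate 3.

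**Figure D5:**
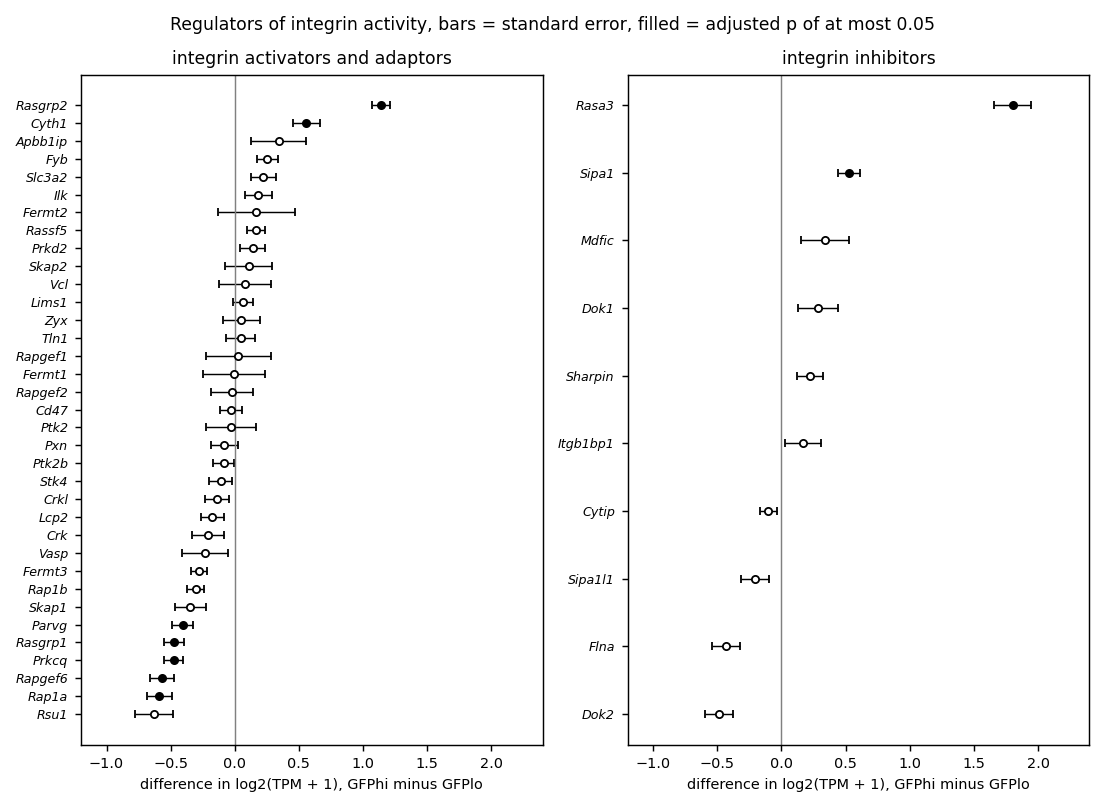
Difference in log2(TPM + 1) between GFPhi and GFPlo (x axis, bars for the standard error) for 35 activators and adaptors and 10 inhibitors of integrins, filled where the adjusted p was at most 0.05. Rasgrp2 at 1.14 and Rasa3 at 1.80 lie farthest from 0.

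Of 21 genes for integrin ligands, 15 were tested and none passed in limma, where 2.38% of all tested genes passed upward and 1.51% downward. Tgfb1, whose latent form binds alphav integrins, had means of 124.1 TPM in GFPlo and 176.6 TPM in GFPhi (adjusted p = 0.102). It passed as higher with limma-voom on library totals (0.00283). Lrrc32 had means of 4.12 and 10.8 TPM (log2FC 1.27, adjusted p = 0.058). Icam2, a ligand of LFA-1, was at 75.2 and 67.2 TPM (0.792). Vcam1, the ligand of VLA-4, was at 12.2 and 14.1 TPM, and Cdh1, the ligand of Itgae with Itgb7, had means under 1 TPM in all groups.

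For the 4 members that passed, the genes with the most similar pattern were found by the mean absolute difference of centred log2(TPM + 1) values over the 9 samples. Nearest to Itgb7 was Rasgrp2 (0.061 log2 units), followed by Gramd3 (0.064), Hvcn1 (0.072) and Btg1 (0.074). Itga4 was nearest to Herc4 (0.033) and Prex1 (0.036), then Dlg3, Tec and Rab11fip1 (0.053 to 0.06). This scale shrinks the fold changes of low genes, so a near gene need not change by the same fold. Tec had means of 0.48, 0.66 and 1.31 TPM in GFPlo, GFPmed and GFPhi, and Gramd3 had 1.69, 2.95 and 5.73 TPM. Itgb1 was nearest to Ppm1f (0.045) and Etv3 (0.05), then Prmt5, C230085N15Rik and Inpp4b (0.059 to 0.064). Closest to Itgb3 was Satb1 (0.054), a chromatin organizer of developing T cells whose means were 760, 602 and 293 TPM in GFPlo, GFPmed and GFPhi, and then Arhgef6 (0.059), Adgrg3 (0.092), Slc15a1 (0.094) and Slc27a1 (0.098).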

How the data were processed

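Bulk RNA-seq of 9 samples (SMART-seq v4 cDNA, NexteraXT libraries) was used, 3 each of GFPlo, GFPmed and GFPhi, grouped by their labels. The authors trimmed reads, aligned them with STAR 2.7.11b to GRCm38, removed duplicates, counted reads per gene and deposited them as TPM per sample. The group means the authors deposited are a normalized signal, their counts divided by DESeq2 1.34.0 size factors, and served here only to solve for whole reads. The table's fold changes, adjusted p-values and call flags are the authors' comparisons and were not used. In all, 0 sample columns were left out.

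Reads were solved from TPM and group means for 41578 of 41978 genes, and 100% of the values checked came out whole within 0.01 reads. PCR duplicates carry no molecular identifiers, so counts cover only part of the error. Depth was 7465552 to 14943774 reads per sample.

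The test was limma 3.58.1 (R 4.3.3) on log2(TPM + 1), 1 model over 9 samples, eBayes with a trend, for genes with at least 1 TPM in at least 3 samples. Fold changes on this scale understate those of low genes. The fit was tested on simulated data. Trends and ratios used exact permutation tests over every arrangement, enumerated with numpy 2.4.6. Gene positions, overlaps and exonic lengths came from GENCODE vM21. Members, motifs and gene lists were chosen with earlier results of these data known. Named are all 9 members, the list genes that passed between GFPlo and GFPhi, the 2 most abundant others of each list, and of the 5 genes nearest in pattern to each member that passed those reported here; 1 marker gene and 1 such neighbour are not reported here, and Vcam1, Cdh1, Itgam, Itgax, Itga2b and the markers given with values were named after their values were seen. Of the marker lists, 1 of 12 SP4 genes rose and 1 fell, of 6 CD8 lineage genes 1 rose and 2 fell, of 4 tested gamma delta and innate genes 1 fell, and of 4 tested thymic epithelial genes 1 rose (Epcam); of 4 endothelial and fibroblast genes and 2 erythroid genes none passed in limma. Alternatives were a pseudocount of 0.1, no filter, 5 TPM, median-of-ratios and quantile scaling, only the groups compared, eBayes with no trend, single samples left out, the replicate number as a block, the DEG rule, limma-voom on solved reads, and TPM on exonic length.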

Additional observations from a re-analysis of the deposited data

How the results depend on the processing

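Itgb7 and Itgb3 passed between GFPlo and GFPhi in every alternative fit, while 4 members passed in the main analysis, 2 with median-of-ratios scaling, 2 as DEG and 7 with limma-voom on library totals. Between GFPmed and GFPhi 3 members passed, against 1 with median-of-ratios scaling, 1 without the trend, 1 as DEG and 5 with limma-voom on library totals, and between GFPlo and GFPmed limma-voom on library totals called 1 against 0. Leaving out 1 library gave 2 to 3 members (2 without GFPlo replicate 2), 0 to 0 and 1 to 3 (1 without GFPmed replicate 2, GFPmed replicate 3 or GFPhi replicate 3) in GFPhi against GFPlo, GFPmed against GFPlo and GFPhi against GFPmed. These fits had fewer samples. Trends held for 7 to 8 members and ratios for 6 to 6 pairs without 1 library.

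Over all genes, GFPhi against GFPlo gave 1194 calls, 603 with median-of-ratios scaling, 600 with only the groups compared, 2252 with limma-voom on library totals, 511 as DEG and 599 to 930 without 1 library (599 without GFPlo replicate 2, 674 without GFPlo replicate 3, 620 without GFPhi replicate 3). GFPmed against GFPlo gave 23, against 38 with a pseudocount of 0.1, 10 with median-of-ratios scaling, 8 without the trend, 66 with limma-voom on library totals, 38 on exonic length and 2 to 23 without 1 library (2 without GFPmed replicate 3). GFPhi against GFPmed gave 463, against 187 with median-of-ratios scaling, 254 with only the groups compared, 1537 with limma-voom on library totals, 771 on exonic length, 212 as DEG and 170 to 381 without 1 library (170 without GFPmed replicate 2). The causes were not tested.

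Members at or above 100 TPM numbered 5 on exonic length and 3 on the deposited length. Past the test were 1 other chain (0 as DEG), 7 activators (1 with median-of-ratios scaling, 1 as DEG), 2 inhibitors (1 with median-of-ratios scaling, 1 as DEG, 1 with the replicate block) and 0 ligands (1 with median-of-ratios scaling, Lrrc32). Signs that turned belonged to values near 0, none of which had passed. Itgae turned with quantile normalization (0.027, and a trend of 0.0135 per step), as did Itga7 (0.0587) and Tln1 (-0.0871), and Itga7 also with limma-voom (0.0094 and 0.0401). Without 1 library, the values between GFPlo and GFPhi ran from -0.367 to 0.18 for Itga7 and from -0.0702 to 0.168 for Tln1, those between GFPlo and GFPmed from -0.0096 to 0.0388 for Itga4 and from -0.103 to 0.0066 for Itgb1, and those between GFPmed and GFPhi from -0.0612 to 0.102 for Itgae.

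Same-numbered samples deviated together at a mean correlation of 0.0609 over 9 pairs (0.0122 to 0.225). Over 18 pairs with different numbers the mean was -0.0305 (-0.185 to 0.148). Deviations were taken from group means, so this second mean follows from the first and is no separate comparison. The same-numbered pairs were all positive but not all above 0.1, and 6 of 9 samples were closest to their own number. The numbers were therefore not taken as a pairing in the main test, although these values cannot exclude one. With the replicate block 3, 0 and 2 members passed in GFPhi against GFPlo, GFPmed against GFPlo and GFPhi against GFPmed, and 955, 5 and 286 genes in all; 8 trends and 6 ratios held within numbers. Itgae, with 101 to 179 reads per sample, is the member whose depth limits it most. No sample group was large enough for an outlier test.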
